A study of Mus musculus with 13 samples.

Results

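Gene expression was followed from heart to heart within 2 treatments of infarcted mice, in 10 of the 13 libraries of a cardiac RNA sequencing series. The members were chosen by label alone: the 5 libraries labelled MI+IgG and the 5 labelled MI+FG-3149, where MI stands for myocardial infarction. Each gene's log2 CPM, the count scaled to library size, was set against the mean of its own group. What is described is therefore which genes were high or low together among hearts given the same treatment, and how wide that spread was in each group. Levels were not compared between treatments. All animals were C57BL/6JO1aHsd mice, 8 to 10 weeks old when treatment began, with the time point labelled 1W+6W, which the labels do not spell out. Both infarcted groups had a permanent ligation of the LAD (left anterior descending coronary artery) and received an antibody at 10 mg/kg. In one group the labels give a mouse anti IgG antibody as treatment, and in the other FG-3149, a mouse monoclonal antibody against connective tissue growth factor (CTGF). The remaining 3 libraries came from untreated sham-operated mice and are used for description only. RNA is described as coming from left ventricular tissue outside the ischaemic zone, so the scar itself was not meant to be sampled. Whether any scar tissue was included was not tested. That the 5 libraries of a group are separate animals rests on the design text, which speaks of treated animals; without that, p-values would measure only the spread between samples.

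After a coronary ligation the surviving ventricular wall carries more load, its muscle cells turn on fetal genes such as the natriuretic peptides, and its fibroblasts lay down collagen. CTGF is a secreted matricellular protein of fibroblasts and muscle cells that is induced by TGF-beta and by the mechanosensitive factors YAP and TAZ. A heart also holds resident and recruited macrophages and keeps a circadian clock, in which the activators ARNTL and CLOCK drive their own repressors, the Per and Cry genes, over the day. In whole tissue, fewer cells of a type and less RNA per cell cannot be told apart.

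Library totals were 13084735 to 17567238 estimated counts with IgG, 10954922 to 12794823 with FG-3149 and 12025880 to 14999813 in sham. In each of the 13 libraries the counts matched the deposited RPKM column of the same sample best (correlation across genes at least 0.94 with its own column and at most 0.78 with another). Heart muscle was present: all 16 cardiomyocyte markers had counts in every infarcted library. Their summed level was 125500 to 135700 CPM with IgG and 131100 to 138600 CPM with FG-3149. These markers cannot tell the chamber or the zone of the heart, so that part of the tissue label was not tested by them. The sex-linked genes gave 1 picture in all infarcted libraries, with Ddx3y at 80.6 to 101 CPM and Xist at 0.279 to 1.19 CPM. The ribosomal precursor Rn45s took 0.673% to 1.936% of counts with IgG and 0.199% to 2.858% with FG-3149. After a filter on low counts 13082 genes were tested. Below, the 5 values of a group are always given in the order of replicates 1 to 5, in CPM after TMM scaling.

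Hearts given FG-3149 were not detectably more or less alike than hearts given IgG. A library's distance from its group centre, the root mean square deviation over all genes on the log2 scale corrected for the number of libraries in the group, was 0.269, 0.224, 0.212, 0.189 and 0.246 with IgG (mean 0.228 ± 0.0309 SD, n = 5). With FG-3149 it was 0.234, 0.225, 0.277, 0.242 and 0.233 (mean 0.242 ± 0.0205 SD, n = 5). The groups overlapped, with IgG replicate 1 and FG-3149 replicate 3 farthest from their centres. The difference of 0.0141 did not pass a 2-sided exact permutation test over all groupings of the libraries (p = 0.421). Library totals were all lower with FG-3149 than with IgG. With all libraries thinned to the smallest total the difference was 0.000768 (exact permutation p = 0.96). With no filter on low counts it was 0.0375 (exact permutation p = 0.0714). The 3 sham libraries lay at 0.201 to 0.211 from their own centre, with the same correction. Gene by gene, the SD was higher with FG-3149 for 7277 of 13082 genes (55.6%), with a median SD of 0.139 against 0.129. This share was 47.3% without FG-3149 replicate 3, so its direction rested on that library, and it was 51.6% with all libraries thinned to the smallest total. In limma's test of the absolute deviations, 0 genes (0% of those tested) passed after Benjamini-Hochberg adjustment, the smallest adjusted p was 0.0744, and 984 genes (7.5%) had an unadjusted p under 0.05, 639 wider with FG-3149 and 345 wider with IgG. The same test made no calls on simulated data at any ratio of spreads tried, so its count of 0 does not show equal spread.

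Gene lists were read against this background of 55.6%, which itself moved when a library was left out. Over all genes the share was 61.8% without IgG replicate 1 and 58.3% without IgG replicate 2. It was 54% without FG-3149 replicate 1 and 47.3% without FG-3149 replicate 3. List counts without a library are to be read against the share without that same library. Of the collagens, 5 of 23 had the higher SD with FG-3149, and their median SD was 0.325 with IgG and 0.159 with FG-3149. Once IgG replicate 2 was left out, 11 of 23 had the higher SD with FG-3149. The activated fibroblast markers, genes of matrix-producing cells in an injured heart, went from 9 of 24 to 18 of 24 in the same way. Genes of fatty acid oxidation, the main fuel pathway of adult heart muscle, had the higher SD with FG-3149 in 7 of 24 cases (median SD 0.103 with IgG and 0.07 with FG-3149) and in 14 of 24 without IgG replicate 1. Cell cycle genes did so in 11 of 37 cases and in 20 of 37 without that replicate. Immediate early genes, which are switched on within minutes of a stimulus, were closer to the background: 16 of 25 had the higher SD with FG-3149 (median SD 0.323 against 0.275 with IgG), and 17 to 19 of 25 did so without IgG replicate 1 or 2 or FG-3149 replicate 1 or 3. Interferon response genes had the higher SD with FG-3149 in 24 of 37 cases, also near the background, and in 33 of 37 without IgG replicate 1. Hypertrophy and fetal heart genes did so in 13 of 18 cases (median SD 0.323 with IgG and 0.362 with FG-3149), and in 11 to 13 of 18 without any one of the same 4 libraries. Cardiomyocyte markers did so in 11 of 16 cases (median SD 0.091 and 0.102), and in 8 of 16 without FG-3149 replicate 3. These counts without single libraries were chosen after the data were seen, and none of them was tested.

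**Figure D1:**
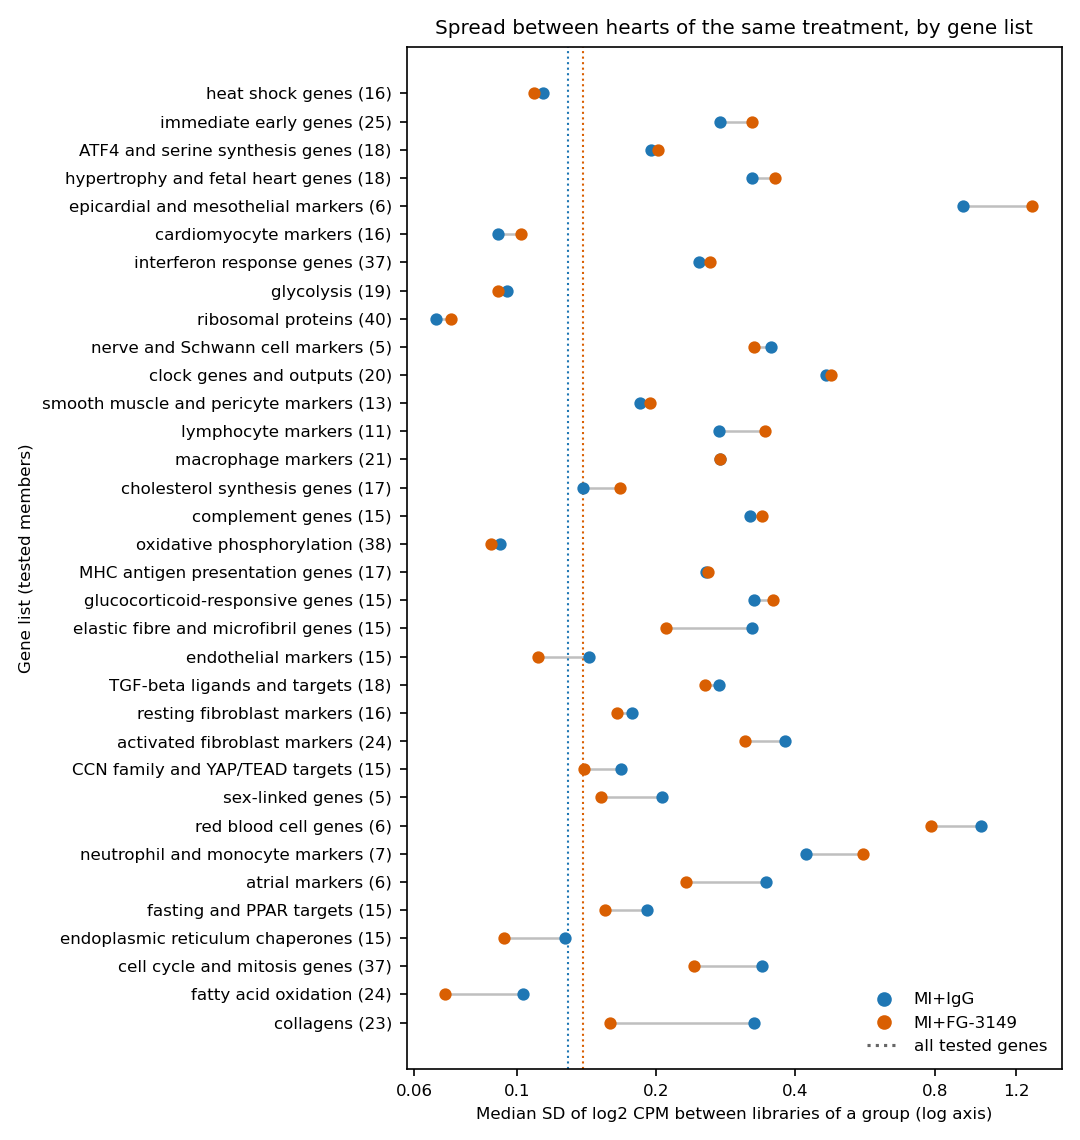
Median SD of log2 CPM between the 5 libraries of a group (horizontal log axis) for each gene list with at least 5 tested members (vertical axis); blue points are MI+IgG, orange points MI+FG-3149, and the dotted lines give all tested genes (0.129 and 0.139). Collagens lie far apart at 0.325 with IgG and 0.159 with FG-3149, and immediate early genes lie in the opposite order at 0.275 and 0.323.

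In these libraries some single genes were nearly constant in one group and scattered in the other. The genes given here were picked for the most extreme SD ratios among genes whose log2 CPM averaged 3 or more. None passed the test of spread. Picking the extremes of many genes, with few libraries in a group, can by itself give such ratios, so they do not show an effect of treatment. Cd36, the fatty acid transporter of the muscle cell membrane, was at 2201, 1863, 2080, 1716 and 1650 CPM with IgG and 1945, 1884, 1908, 1895 and 1937 CPM with FG-3149. The FG-3149 values spanned 1884 to 1945 CPM, inside the IgG range of 1650 to 2201. Itga6, a laminin receptor subunit, was at 113, 116, 82.2, 86 and 68.7 CPM with IgG and 87.8, 89.3, 84.4, 89.9 and 87.9 CPM with FG-3149. It too was nearly flat with FG-3149 and highest in IgG replicates 1 and 2. In the opposite direction, Clip1, which binds the growing ends of microtubules, was at 388, 369.5, 373, 374 and 369.9 CPM with IgG and 353, 408, 262, 398 and 342 CPM with FG-3149. Nuak1, a kinase of the AMPK-related family, was at 83.3, 87.2, 84.5, 90 and 87.3 CPM with IgG and 72.3, 74.8, 45.4, 89.3 and 76.7 CPM with FG-3149. Clip1 and Nuak1 were within a narrow band in IgG hearts and lowest in FG-3149 replicate 3. Plekha2, an adaptor that binds membrane lipids, was at 66.7, 67.4, 67, 66.7 and 67.3 CPM with IgG and 64.6, 68, 68.6, 59.8 and 65.3 CPM with FG-3149.

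Ctgf, the gene for CTGF itself (chr10:24595442-24598682, plus strand, mm10), was at 233, 437, 333, 307 and 310.2 CPM with IgG and 286, 326, 184, 235 and 213 CPM with FG-3149. Its SD on the log2 scale was 0.324 with IgG and 0.330 with FG-3149 (pooled 0.327). IgG replicate 2 was the highest of all and FG-3149 replicate 3 the lowest. Genes that moved with Ctgf were sought in one edgeR quasi-likelihood fit that let each group keep its own mean, so that a slope is the log2 change per 1 SD of Ctgf between hearts of one treatment. Of 13081 genes, 10 rose with Ctgf and 0 fell (0.0764% called), and 1140 had an unadjusted p under 0.05.

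A natriuretic peptide gene had the smallest p. Nppa (chr4:148000746-148002067, plus strand), which encodes atrial natriuretic peptide and is re-expressed by loaded ventricular muscle, was at 1528, 3505, 2594, 2273 and 2307 CPM with IgG and 2622, 2767, 1142, 1485 and 1386 CPM with FG-3149. Within each group the 5 hearts stood in the same order for Nppa as for Ctgf. Its slope was 0.50 ± 0.04 SE (edgeR adjusted p = 1.41e-05). Nppb, for brain natriuretic peptide, was at 510, 892, 674, 557 and 499 CPM with IgG and 576, 781, 382, 482 and 375 CPM with FG-3149, with a slope of 0.36 ± 0.05 SE (adjusted p = 0.0329). Over the 10 libraries, the group-centred values of Ctgf and Nppa had r = 0.98 and rho = 0.95 (exact permutation p = 6.94e-05 for each, the smallest that the arrangements within groups can give, adjusted p = 0.00243 over 35 relations). Without IgG replicate 2 and FG-3149 replicate 2, the libraries farthest from the median of Ctgf, r was 0.97. Of the 35 relations among 7 genes, library totals and Rn45s shares, 1 passed after adjustment, and it was this one. Library total went with Ctgf at r = 0.59 and rho = 0.65, which did not pass (exact permutation p = 0.0858 and 0.0513, adjusted 0.3 and 0.274), and r was 0.36 without the same 2 libraries.

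The other 8 calls included 3 matrix genes. Col12a1, a fibril-associated collagen gene (chr9:79598991-79718678, minus strand), was at 25.2, 61.5, 30.9, 29.3 and 31.8 CPM with IgG and 28.9, 31.5, 12.3, 17.9 and 18.6 CPM with FG-3149, with a slope of 0.50 ± 0.05 SE (edgeR adjusted p = 0.00156). IgG replicate 2 stood far above the other IgG hearts, and FG-3149 replicate 3 was lowest. Postn, for periostin, which marks activated fibroblasts, was at 376, 832, 517, 453 and 535 CPM with IgG and 324, 346, 254, 299 and 239 CPM with FG-3149 (slope 0.31 ± 0.05 SE, adjusted p = 0.0439). Gdf15, a circulating stress cytokine, was at 4.42, 12.4, 9.85, 8.91 and 8.15 CPM with IgG and 11.2, 11.3, 2.38, 7.47 and 6.09 CPM with FG-3149 (slope 0.62 ± 0.09 SE, adjusted p = 0.0329). The others that rose with Ctgf were the stress regulator Nupr1 (0.31), the collagen gene Col16a1 (0.32), Serpina3n (0.41), Dpysl3 (0.21) and the survival gene Bcl2 (0.22), with adjusted p from 0.0329 to 0.0489. Nppa and Col12a1 kept their call in all 19 alternatives run for each (largest adjusted p 0.000679 and 0.0359), with slopes of 0.46 to 0.56 and 0.38 to 0.54. These were also the 2 genes called when library total entered as a further term. The count of 10 moved by over 1.5 times without any one library other than IgG replicate 3, from 2 without FG-3149 replicate 1 or 2 to 20 without FG-3149 replicate 3 and 43 without IgG replicate 1. It was 4 without IgG replicate 2 or FG-3149 replicate 4, 5 without IgG replicate 4 or FG-3149 replicate 5 and 6 without IgG replicate 5.

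Whole groups of genes leaned one way with Ctgf. All 23 collagens had slopes above 0, with a median of 0.14 where the median over all genes was 0, but only Col12a1 and Col16a1 were called. All 23 activated fibroblast markers tested beside Ctgf also had slopes above 0, with a median of 0.23, 17 unadjusted p under 0.05 and 1 call (Postn). Without IgG replicate 2 the collagens were at 16 of 23 above 0 (median 0.08), while the fibroblast markers stayed at 23 of 23 (median 0.14). Of 25 immediate early genes, 22 had slopes above 0, with a median of 0.11, 6 unadjusted p under 0.05 and 0 edgeR calls. Energy genes leaned the other way: 0 of 24 fatty acid oxidation genes and 0 of 38 oxidative phosphorylation genes had a slope above 0, each with a median of -0.06. In edgeR 0 of them were called, while 15 and 19 had an unadjusted p under 0.05. The lean was not particular to energy genes. Of 16 cardiomyocyte markers, 1 had a slope above 0, with the same median of -0.06, 8 unadjusted p under 0.05 and 0 edgeR calls. With library total as a further term, or without IgG replicate 2, fatty acid oxidation genes were still at 0 of 24. Hadha, which encodes the alpha subunit of the mitochondrial trifunctional protein of that pathway (chr5:30118304-30154980, minus strand), was at 1578, 1327, 1439, 1367 and 1328 CPM with IgG and 1522, 1486, 1551, 1583 and 1656 CPM with FG-3149. Ctgf and Hadha went in opposite directions at r = -0.71 and rho = -0.73 (exact permutation p = 0.0347 and 0.0198, adjusted 0.243 and 0.231), which did not pass, and r was -0.58 without IgG replicate 2 and FG-3149 replicate 2. The summed cardiomyocyte markers were lowest in IgG replicate 2, at 125500 CPM, and their part in these slopes was not tested.

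**Figure D2:**
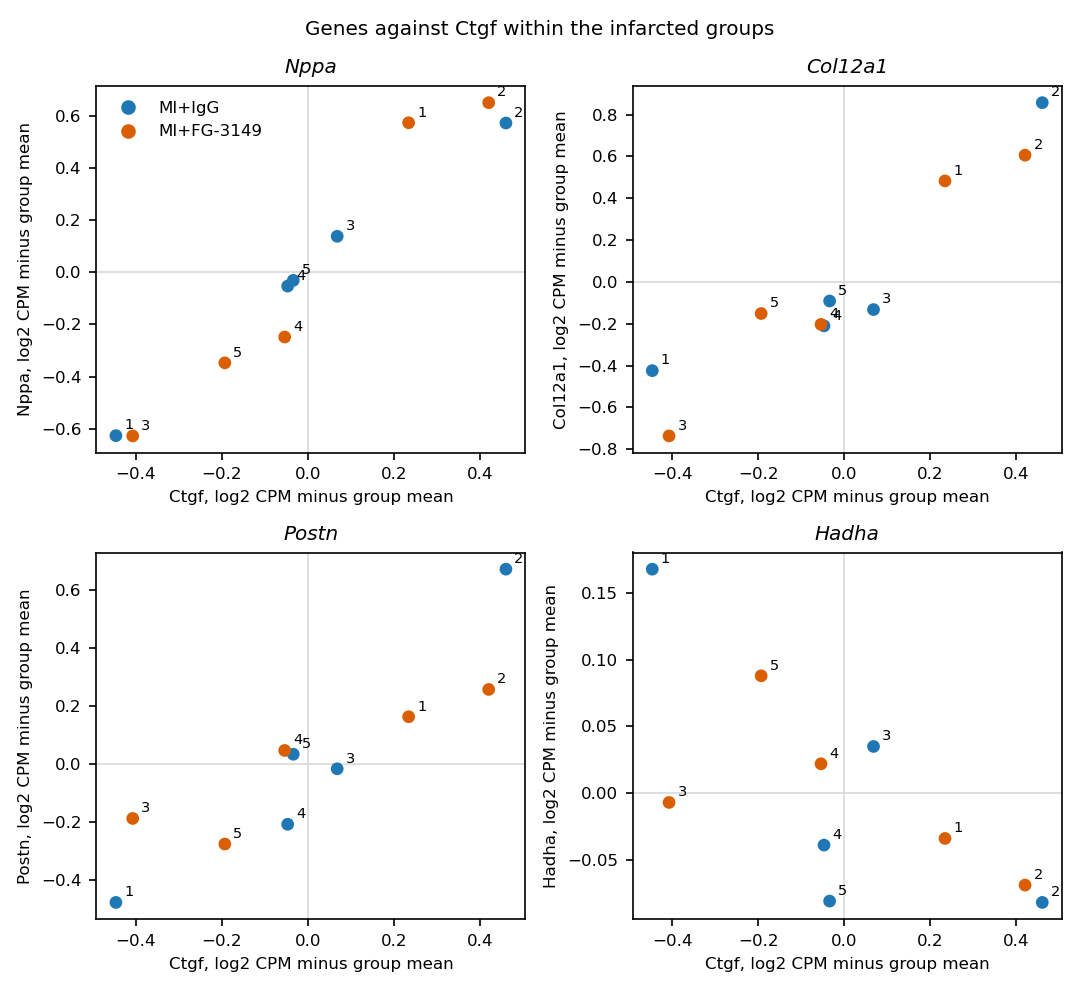
Log2 CPM minus the group mean of Nppa, Col12a1, Postn and Hadha (vertical axes) against that of Ctgf (horizontal axis) in the 10 infarcted libraries, blue for MI+IgG and orange for MI+FG-3149, each point labelled with its replicate number. Nppa lies close to a straight line with Ctgf (r = 0.98), IgG replicate 2 is at the upper right for the first 3 genes, and Hadha slopes downward (r = -0.71).

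The fit on Nppa in place of Ctgf gave 6 genes, all rising (0.0459% of 13081, with 1069 at an unadjusted p under 0.05). Ctgf had a slope of 0.32 (edgeR adjusted p = 0.000173) and Col12a1 one of 0.50 (0.0108). Gdf15, Nupr1 and Dpysl3 were called again, with slopes of 0.62, 0.32 and 0.22. Since Ctgf and Nppa had r = 0.98 in the same libraries, the shared calls are not independent of the fit on Ctgf. The gene that Ctgf did not call was Lgals3, for the lectin galectin-3, at 13.1, 26.3, 14.7, 17.5 and 16.1 CPM with IgG and 20.2, 19.8, 9.05, 8.78 and 11.1 CPM with FG-3149 (slope 0.46, adjusted p = 0.0108). Leaving out FG-3149 replicate 1 or 2 left 1 call each, while leaving out IgG replicate 3 gave 14 and IgG replicate 1 gave 36. Myh7, the fetal myosin heavy chain gene that usually accompanies Nppa in loaded muscle, was at 2514, 4012, 2992, 4401 and 3543 CPM with IgG and 2129, 3594, 1816, 2258 and 2684 CPM with FG-3149. Its highest IgG value was in replicate 4, not in replicate 2.

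Col1a1, the main fibrillar collagen gene (chr11:94936270-94951856, plus strand), stood apart in one heart. It was at 203, 359, 201, 227 and 194 CPM with IgG and 235, 239, 213, 163 and 191 CPM with FG-3149. IgG replicate 2 was alone at the top, and the other 9 libraries spanned 163 to 239 CPM. In the edgeR fit on Col1a1, 53 genes rose (0.405%) and 5 fell (0.0382%), together 0.443% of 13081, and 1175 had an unadjusted p under 0.05. Without IgG replicate 2, 0 were called by edgeR and 755 had an unadjusted p under 0.05, so the calls below describe mainly what was high or low in that heart. Without IgG replicate 1 there were 177, without FG-3149 replicate 3 there were 107, without IgG replicate 3 there were 30, and without FG-3149 replicate 1, 2, 4 or 5 there were 25 to 28.

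Genes of collagen fibres and their assembly were among those that rose with Col1a1. Of 22 other collagens, 5 were called (Col1a2, Col3a1, Col5a1, Col5a2 and Col6a1) and 21 had slopes above 0, with a median of 0.17. Without IgG replicate 2, 18 of 22 were above 0, with a median of 0.08. Col3a1, another fibrillar collagen gene, was at 557, 866, 526, 462 and 441 CPM with IgG and 599.5, 591, 543, 386 and 404 CPM with FG-3149 (slope 0.31, edgeR adjusted p = 0.00657). Of 24 activated fibroblast markers, 5 were called (Meox1, Lox, Fn1, Ddah1 and Cthrc1) and 24 had slopes above 0, with a median of 0.28. Those 24 stayed above 0 without IgG replicate 2, with a median of 0.13. Lox, which cross-links collagen, was at 13.6, 32.2, 16, 11.4 and 9.3 CPM with IgG and 16.9, 18.4, 9.79, 9.53 and 10.9 CPM with FG-3149 (slope 0.50, adjusted p = 0.0236). The steepest of all was Sfrp1, a secreted Wnt antagonist, at 36.4, 94.8, 38.4, 37.5 and 40.4 CPM with IgG and 55.5, 55.4, 41.7, 25.6 and 27.2 CPM with FG-3149 (slope 0.53, adjusted p = 0.00237). Rcan1, a target and brake of calcineurin signalling in muscle, had the smallest adjusted p, 0.00113, with a slope of 0.34. It was at 218, 369.7, 199, 224 and 214 CPM with IgG and 290.1, 279.5, 250.5, 166 and 182 CPM with FG-3149, so that FG-3149 replicates 1, 2 and 3 also lay above replicates 4 and 5.

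The 5 genes that fell with Col1a1 included Cebpb, a transcription factor of the acute response, and Nampt, which makes a precursor of NAD. Cebpb was at 11.5, 7.06, 14.7, 13.1 and 15.1 CPM with IgG and 17.2, 20.3, 19.3, 21.9 and 25.2 CPM with FG-3149 (slope -0.30, edgeR adjusted p = 0.0462). Nampt was at 265, 183, 244, 236 and 298 CPM with IgG and 209, 214, 183, 264 and 251 CPM with FG-3149 (slope -0.21, adjusted p = 0.0302). Both were lowest among IgG hearts in replicate 2. Mylk4 (-0.19), Wnk2 (-0.18) and Dgat2 (-0.18), the last an enzyme of triglyceride synthesis, were the other 3. The 6 red blood cell genes tested all had slopes above 0 with Col1a1 (median 0.63, 6 unadjusted p under 0.05, 0 called), and their summed level was highest in IgG replicate 2, at 1483 CPM.

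Fos, the classic immediate early transcription factor gene, had the widest spread of the unclustered reference genes (pooled SD 0.769). It was at 1.67, 2.46, 1.49, 2.12 and 2.54 CPM with IgG and 5.65, 3.98, 2.01, 0.841 and 1.38 CPM with FG-3149. FG-3149 replicates 1 and 2 were highest. Fosl2 and Fbn2 rose with it (2 genes, 0.0153% of 13081, with 997 at an unadjusted p under 0.05). Fosl2, a second member of the AP-1 family, was at 37.8, 43.9, 30.9, 35.8 and 33.3 CPM with IgG and 58.4, 48.3, 34.8, 28 and 30.3 CPM with FG-3149 (slope 0.32 ± 0.04 SE, edgeR adjusted p = 0.0262). Fbn2, for the microfibril protein fibrillin-2, was at 1.89, 2.8, 1.43, 2.24 and 3.69 CPM with IgG and 5.31, 5.89, 2.38, 1.21 and 1.38 CPM with FG-3149 (slope 0.81 ± 0.11 SE, adjusted p = 0.0262). Both calls were lost without any one of the FG-3149 replicates or without IgG replicate 3 or 4. Of the 24 other immediate early genes, 20 had slopes above 0, with a median of 0.18, 13 unadjusted p under 0.05 and 1 call. The nuclear receptor gene Nr4a1 was at 19.6, 19.8, 13.9, 15.1 and 11.5 CPM with IgG and 49.3, 41.2, 11.2, 10.7 and 8.85 CPM with FG-3149. The same pair of FG-3149 hearts was thus high for Nr4a1 as well.

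Neither Hadha nor Top2a, the topoisomerase gene of dividing cells, called a gene in edgeR (0% of 13081 each, smallest adjusted p 0.331 and 0.238). At an unadjusted p under 0.05 they had 880 and 633 genes, and DESeq2 called 22 and 2. For Top2a, 633 of 13081 is no more than a threshold of 0.05 gives by chance. The own pathways of both reference genes leaned with them. Of 23 other fatty acid oxidation genes, 22 had slopes above 0 with Hadha (median 0.07, 17 unadjusted p under 0.05), and 37 of 38 oxidative phosphorylation genes did so (median 0.05). Top2a was at 8.63, 9.97, 13.9, 11.9 and 14.8 CPM with IgG and 10, 10.4, 9.24, 9.25 and 7.88 CPM with FG-3149. Of 36 other cell cycle genes, 34 had slopes above 0 with it (median 0.18, 15 unadjusted p under 0.05). The proliferation marker Mki67 was at 14.9, 18.9, 24.2, 20.6 and 32.1 CPM with IgG and 16.1, 19.6, 12.6, 17.6 and 12.4 CPM with FG-3149, highest in IgG replicate 5 as was Top2a. Without IgG replicate 5, 292 genes had an unadjusted p under 0.05 with Top2a in edgeR. How far the lean of the cell cycle genes rested on that heart was not tested.

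Macrophage genes varied together. C1qb, a chain of complement C1q made in the heart mainly by macrophages (chr4:136880145-136886177, minus strand), was at 58.5, 81.1, 88.6, 71.1 and 94.6 CPM with IgG and 62.1, 60.2, 91.3, 64.6 and 73.5 CPM with FG-3149. IgG replicate 1 was lowest and FG-3149 replicate 3 was well above its group. In the edgeR fit, 31 genes rose (0.237%) and 12 fell (0.0917%) with C1qb, together 0.329% of 13081, and 1381 had an unadjusted p under 0.05. Of 20 other macrophage markers, 8 rose, 0 fell, and 17 had slopes above 0 with a median of 0.25. The 8 were C1qa, C1qc, Csf1r, Mrc1, Cd68, Lyve1, Ccr2 and Emr1 (the F4/80 gene). C1qc, the neighbouring chain of the same complex, was at 50.2, 67.2, 83.2, 65 and 87.4 CPM with IgG and 59.8, 54.6, 87.7, 56.1 and 65.3 CPM with FG-3149 (slope 0.29, adjusted p = 0.000408). Csf1r, the receptor for the macrophage growth factor, was at 55.2, 72.1, 87.5, 71 and 86 CPM with IgG and 64.2, 59.3, 95.1, 68.8 and 75 CPM with FG-3149 (slope 0.26, adjusted p = 0.000648). Ccr2, the chemokine receptor of recruited monocytes, was at 2.68, 5.71, 9.51, 7.32 and 9.38 CPM with IgG and 4.45, 4.75, 9.14, 4.86 and 7.39 CPM with FG-3149 (slope 0.53, adjusted p = 0.0205). Lyve1, which marks resident macrophages and lymphatic vessels, was at 17.5, 21.5, 24.7, 23 and 37 CPM with IgG and 23.5, 17.9, 31.2, 20.1 and 27 CPM with FG-3149 (slope 0.32, adjusted p = 0.0377). The call of Ccr2 was lost without IgG replicate 1 or 3 or FG-3149 replicate 3, and that of Lyve1 without IgG replicate 1 or 5 or FG-3149 replicate 2, 3, 4 or 5. The chemokine genes Ccl6 (0.46) and Ccl9 (0.39), the integrin gene Itgam (0.36) and the coagulation factor gene F13a1 (0.42) also rose.

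Genes of interferon response and antigen presentation leaned against C1qb. Of the 12 that fell with C1qb, the steepest were the GTPase gene Gm12250 (-0.67), the MHC class I gene H2-Q5 (-0.44) and Cd274, which encodes the checkpoint ligand PD-L1 (-0.39). H2-Q5 was at 21.2, 11.3, 9.45, 13.8 and 7.84 CPM with IgG and 18.3, 15.8, 11.2, 17.5 and 9.83 CPM with FG-3149 (edgeR adjusted p = 0.00908), and reads of near-identical H2-Q genes may be shared among them. Cd274 was at 26.5, 13, 12.4, 14.2 and 10.5 CPM with IgG and 21.2, 13.3, 11.5, 17.6 and 14.6 CPM with FG-3149 (adjusted p = 0.0474). Both were highest in IgG replicate 1, the heart in which C1qb was lowest. Of 37 interferon response genes 6 had slopes above 0 with C1qb (median -0.09), and of 17 MHC genes 1 did (median -0.06), with 0 edgeR calls in either list and 8 and 3 unadjusted p under 0.05. Without IgG replicate 1 these became 11 of 37 and 9 of 17. Without that library 6 genes were called with C1qb, 3 of them macrophage markers, and without FG-3149 replicate 3 there were 10, 2 of them macrophage markers. The count was 16, 21 and 23 without IgG replicate 3, FG-3149 replicate 2 or FG-3149 replicate 4, and 72 without IgG replicate 4. Among 20 macrophage markers, 18 and 17 had slopes above 0 without IgG replicate 1 and without FG-3149 replicate 3, with medians of 0.19 and 0.17.

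That heart, IgG replicate 1, stood out for interferon-induced GTPases. Igtp (chr11:58199556-58207592, plus strand) was at 54.8, 20.4, 22.7, 18.4 and 20.3 CPM with IgG and 37, 21.7, 27.2, 23.7 and 19.4 CPM with FG-3149. Gbp3 (chr3:142560052-142573212, plus strand) was at 30.7, 19.7, 19.1, 20.1 and 18.1 CPM with IgG and 30.3, 15.9, 22.5, 24.6 and 13.2 CPM with FG-3149. IgG replicate 1 was far above the other IgG hearts in both, and FG-3149 replicate 1 was the highest of its own group. Ifit3, a gene of the type I interferon response, was at 21.3, 27, 20.4, 24.4 and 27.4 CPM with IgG and 20.7, 21.1, 16.5, 21.3 and 15.6 CPM with FG-3149. IgG replicate 1 was not high for it. Its deviations fell into separate clusters, with the widest gap at 42.1% of their range, so no relation with it was computed. Since Igtp and Gbp3 varied together, the 250 bases before their starts are shown (RefSeq, GRCm38.p6, 5′ to 3′ on the gene's strand), with matches to the interferon regulatory factor motif (GAAA, any 2 bases, GAAA) on either strand in capitals. The regions are chr11:58199306-58199555 and chr3:142559794-142560043.
Igtp: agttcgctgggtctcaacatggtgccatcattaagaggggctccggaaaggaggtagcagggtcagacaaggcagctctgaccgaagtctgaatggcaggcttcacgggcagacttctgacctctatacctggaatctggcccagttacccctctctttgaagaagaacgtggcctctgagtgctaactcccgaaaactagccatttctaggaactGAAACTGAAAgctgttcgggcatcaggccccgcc
Gbp3: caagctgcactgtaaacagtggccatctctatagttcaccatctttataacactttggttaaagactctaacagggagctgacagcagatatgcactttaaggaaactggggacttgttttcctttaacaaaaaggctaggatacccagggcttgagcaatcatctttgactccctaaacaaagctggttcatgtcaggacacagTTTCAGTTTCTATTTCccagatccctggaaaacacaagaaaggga
Igtp held 1 match, 34 bases before the start, and Gbp3 held 2 overlapping ones on the opposite strand, from 45 and 39 bases before it. The RefSeq start of Gbp3 lies 8 bases before that in the deposited table. The motif was in 2.68% of 10379 mouse promoters of that length, in 13 of the 27 interferon response genes with a promoter sequence, and in 11 of the 106 genes (10.38%) with one in the module that holds both. A match is a description of the letters, not of binding.

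Clock genes varied widely between hearts of one treatment: among 36 gene lists only the mesothelial and red blood cell lists had a higher median pooled SD than their 0.444. The median SD of 20 clock genes was 0.465 with IgG and 0.477 with FG-3149, against 0.129 and 0.139 over all genes. Arntl (chr7:113207465-113314126, plus strand), the core activator, was at 15.7, 15.2, 4.81, 3.13 and 2.46 CPM with IgG and 13.9, 15, 18.6, 2.99 and 2.76 CPM with FG-3149 (pooled SD 1.276, the eighth widest of genes averaging 1 or more). It was high in IgG replicates 1 and 2 and in FG-3149 replicates 1, 2 and 3 and low in the other 5, with the widest gap between neighbouring deviations at 40.5% of their range. The values therefore formed separate clusters, and no slope or correlation with Arntl is reported. Its partners Clock and Npas2 were high in the same libraries, with Npas2 at 5.44, 7.28, 3.55, 2.72 and 3.38 CPM with IgG and 4.97, 5.21, 6.68, 2.52 and 1.87 CPM with FG-3149. Clock was at 71.5, 71.6, 56.2, 41.7 and 49.9 CPM with IgG and 68.9, 69.8, 61.8, 40.5 and 49.7 CPM with FG-3149.

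Several genes downstream of the activators, though not all, were low where Arntl was high. Per2, a repressor of the clock, was at 22.6, 21.4, 35.7, 43.4 and 60.4 CPM with IgG and 17.2, 19.8, 9.88, 37.4 and 44.1 CPM with FG-3149. Per3 was at 38.4, 31.8, 53.7, 77.8 and 66.7 CPM with IgG and 32.1, 40.5, 24.1, 67.8 and 80.8 CPM with FG-3149. Cry1, a second kind of repressor, was at 10.4, 7.73, 11.7, 12.7 and 25.4 CPM with IgG and 8.3, 9.11, 8.78, 15.4 and 17.1 CPM with FG-3149. All 3 were lower in IgG replicates 1 and 2 than in replicates 3, 4 and 5, and lower in FG-3149 replicates 1, 2 and 3 than in replicates 4 and 5. The same ordering held for the 2 output factors Tef and Hlf of the PAR bZIP family. Tef was at 190.4, 165, 250.4, 290.5 and 283 CPM with IgG and 173, 172, 142, 282 and 295 CPM with FG-3149. Hlf was at 30.8, 20, 39.4, 47.4 and 45.3 CPM with IgG and 28, 28.1, 23, 48.9 and 51.8 CPM with FG-3149. Dbp, of the same family, was at 58.7, 61.8, 129, 149.6 and 69.2 CPM with IgG and 79.3, 85.4, 72.2, 174 and 165 CPM with FG-3149. For Dbp, IgG replicate 5 lay near replicates 1 and 2 and not near 3 and 4.

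IgG replicate 5 differed from the other 9 hearts in several clock genes. Nr1d1, the REV-ERB alpha repressor of Arntl, was at 130.5, 165, 126, 155 and 58.5 CPM with IgG and 135, 139, 166, 134 and 134 CPM with FG-3149. Its value of 58.5 CPM was less than any other, and Arntl was lowest in the same heart. Among FG-3149 hearts both were highest in replicate 3. Nr1d1 thus did not run opposite to Arntl. Gm129, also known as Ciart, a repressor of the activators, was at 8.05, 6.83, 16.4, 20.5 and 7.23 CPM with IgG and 9.85, 5.74, 3.93, 18 and 16.7 CPM with FG-3149. IgG replicate 5 again lay with replicates 1 and 2, while its Per2 and Cry1 were the highest of all 10. Nfil3, a repressor that acts against Dbp, Tef and Hlf, was at 9.79, 8.74, 8.42, 8.97 and 16.3 CPM with IgG and 8.3, 8.8, 11.2, 9.53 and 9.18 CPM with FG-3149, highest in that heart. The labels give no time of tissue collection, so a part of it in these values was not tested.

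Promoters of 3 of these genes are shown because they hold the E-box CACGTG that ARNTL and CLOCK bind (250 bases before the start, RefSeq, GRCm38.p6, 5′ to 3′ on the gene's strand, E-boxes in capitals). The regions are chr3:95882229-95882478 on the minus strand for Gm129, chr15:81802423-81802672 on the plus strand for Tef and chr10:85185055-85185304 on the minus strand for Cry1.
Gm129: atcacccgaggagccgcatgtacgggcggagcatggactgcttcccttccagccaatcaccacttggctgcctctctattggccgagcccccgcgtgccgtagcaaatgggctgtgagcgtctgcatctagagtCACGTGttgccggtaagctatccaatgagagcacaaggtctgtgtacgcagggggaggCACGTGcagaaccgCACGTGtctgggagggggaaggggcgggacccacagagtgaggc
Tef: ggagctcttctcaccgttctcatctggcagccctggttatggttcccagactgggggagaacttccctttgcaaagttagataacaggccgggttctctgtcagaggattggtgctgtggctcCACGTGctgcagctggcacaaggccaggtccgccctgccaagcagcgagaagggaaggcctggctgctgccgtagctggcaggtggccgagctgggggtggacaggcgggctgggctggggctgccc
Cry1: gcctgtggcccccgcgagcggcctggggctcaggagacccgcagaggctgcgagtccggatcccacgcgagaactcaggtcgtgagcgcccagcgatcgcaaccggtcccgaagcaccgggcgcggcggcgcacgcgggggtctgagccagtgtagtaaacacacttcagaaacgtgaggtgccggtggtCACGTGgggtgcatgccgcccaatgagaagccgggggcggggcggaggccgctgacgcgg
The E-boxes start 116, 58 and 44 bases before the start of Gm129, 127 before Tef and 60 before Cry1. The letters read the same on both strands. They were in 8.33% of 10379 mouse promoters of that length and in 4 of the 16 clock genes with a promoter sequence, Per1 being the fourth. In the module of covarying genes that contains Per2, Per3, Dbp and Tef, 13 of 121 genes with a promoter sequence (10.74%) held one.

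Haemoglobin transcripts were high in the same hearts as Arntl. Hba-a1, for the alpha chain, was at 338, 535, 114, 121 and 135 CPM with IgG and 367, 493, 477, 166 and 188 CPM with FG-3149. Alas2, the first enzyme of haem synthesis in red cells, was at 14.9, 21.3, 6.01, 5.08 and 6.92 CPM with IgG and 13.6, 21.1, 22.4, 6.82 and 6.5 CPM with FG-3149. Both were high in IgG replicates 1 and 2 and FG-3149 replicates 1, 2 and 3 and low in the rest. The alpha and beta chain genes each have near-identical copies, so their single values are uncertain, but the summed level of the 8 red blood cell genes matched by symbol was 1006, 1483, 343, 356 and 388 CPM with IgG and 1062, 1405, 1266, 459 and 490 CPM with FG-3149. In sham libraries the sum was 553 to 864 CPM. How much blood remained in the tissue was not tested.

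**Figure D3:**
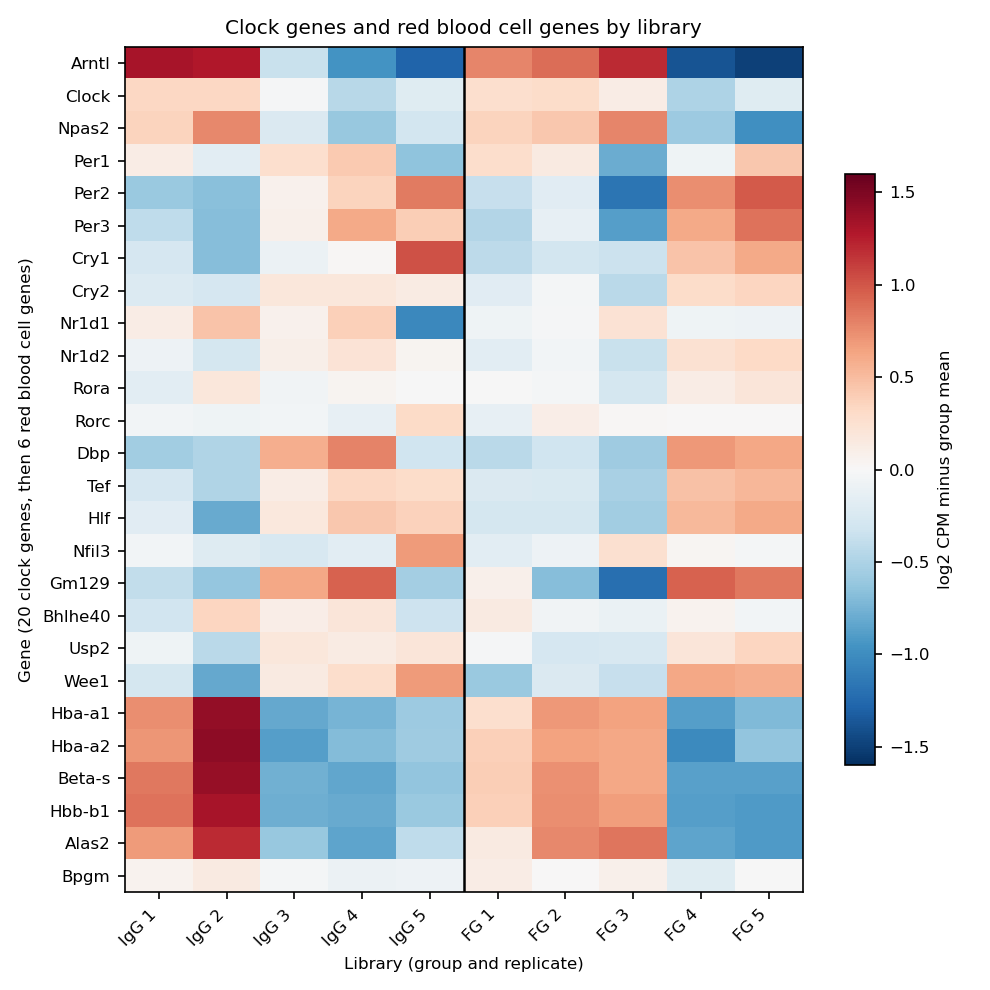
Log2 CPM minus the group mean (colour scale) of 20 clock genes and, below them, 6 red blood cell genes (vertical axis) in the 10 infarcted libraries (horizontal axis, group and replicate). Arntl, Clock, Npas2 and the haemoglobin genes are high in IgG replicates 1 and 2 and FG-3149 replicates 1 to 3, where Per2, Per3, Tef and Hlf are low, and Nr1d1 is lowest in IgG replicate 5.

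Without any reference gene, the first 3 principal components of the group-centred values held 21.4%, 17.5% and 15.3% of the variance. The first separated IgG replicates 1 and 2 (scores -18.7 and -8.5) and FG-3149 replicates 1 and 2 (-14.9 and -9.8) from the other 6 libraries (4.5 to 14.1). Its lowest loadings included Arntl, the haemoglobin genes, Nr4a1 and Gm12250, and its highest Cyp26b1, Slc15a2 and Myl4. The second was mainly FG-3149 replicate 3 (score 25.5), with Gm129, Per2 and Per3 among its lowest loadings.

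Clustering the 1000 most variable genes into 8 modules of 37 to 195 genes sorted them by these patterns, as a description without a test. Module 1, of 195 genes, held 6 of the 9 macrophage markers and 5 of the 7 complement genes among the 1000, with mean deviations of -0.55 in IgG replicate 1 and 0.49 in FG-3149 replicate 3. Module 2, of 160 genes, joined 8 of 13 clock genes (Per2, Per3, Cry1, Dbp, Tef, Hlf, Gm129 and Wee1) with 10 of 15 cell cycle genes, lowest in IgG replicate 1 (-0.49) and highest in IgG replicate 5 (0.32). Module 3, of 145 genes, held 14 of 18 activated fibroblast markers, 6 of 8 collagens and 5 of 8 immediate early genes, and was high in FG-3149 replicates 1 and 2 (0.51 and 0.33) and IgG replicate 2 (0.38). Module 4, of 142 genes, held Arntl, Clock and Npas2 together with 5 of 5 red blood cell genes. Module 5, of 140 genes, held 6 of 12 interferon response genes, 4 of 4 MHC genes and 5 of 8 glucocorticoid-responsive genes such as Sgk1 and Per1, and was highest in IgG replicate 1 (0.47). Module 7, of 82 genes, held Ctgf, Nppa and Myh7 and was lowest in FG-3149 replicate 3 (-0.69). The joins depended on how many genes were clustered: of the gene pairs in one module, 44.6% stayed together with 500 genes and 44.8% with 2000.

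**Figure D4:**
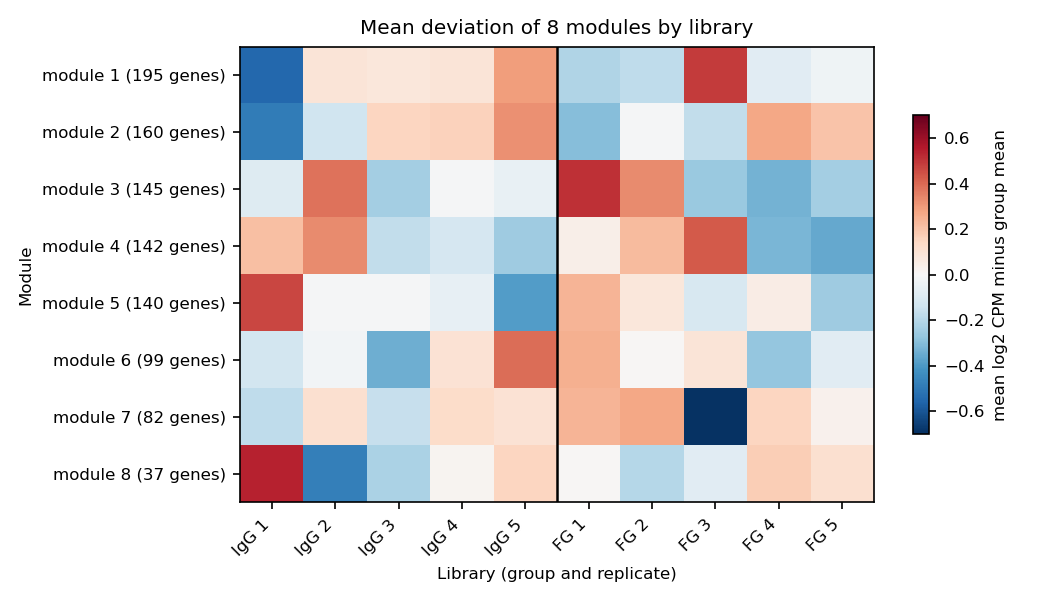
Mean log2 CPM minus the group mean (colour scale) of each of the 8 modules (vertical axis, with their numbers of genes) in the 10 infarcted libraries (horizontal axis, group and replicate). IgG replicate 1 is low in modules 1 and 2 (-0.55 and -0.49) and high in module 5 (0.47), and FG-3149 replicate 3 is high in module 1 (0.49) and low in module 7 (-0.69).

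A few of the most variable genes were near 0 in some libraries and ordinary in the rest. Myo1h, a class I myosin gene (chr5:114314941-114364576, plus strand), was at 0.29, 0.448, 0.172, 0.295 and 15.8 CPM with IgG and 12.3, 14.1, 16.3, 12.5 and 13 CPM with FG-3149. IgG replicates 1 to 4 thus held 4, 8, 3 and 5 counts where every other library, sham included, held 134 to 209. Part of its span (1005 bases) overlaps Kctd10 on the opposite strand, and the strand setting of the counting is not given in the sources used here. Sla2, an adaptor of lymphocyte receptor signalling (chr2:156872922-156887078, minus strand), was at 18.1, 18.4, 19.2, 17.1 and 20.4 CPM with IgG and 17.6, 0.459, 20.3, 18.4 and 17.5 CPM with FG-3149. FG-3149 replicate 2 held 6 counts, and all other libraries 197 to 336. Sla2 shares 641 bases with 1110008F13Rik on the opposite strand. The uncharacterised gene 2610020C07Rik, which shares 9556 bases with Gspt1 on the opposite strand, was at 4.57, 0.448, 0.573, 0.295 and 5.54 CPM with IgG and 4.37, 4.13, 4.3, 5.32 and 4.14 CPM with FG-3149. IgG replicates 2, 3 and 4 were low for it. Tmem38b, for a cation channel of the sarcoplasmic reticulum, was at 90.3, 104, 33.2, 36.7 and 41.5 CPM with IgG and 68.6, 39.6, 426, 247 and 85.4 CPM with FG-3149, highest in FG-3149 replicates 3 and 4. Why single libraries lack or gain these transcripts was not tested.

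Other highly variable genes mark tissue that a ventricular sample may or may not include. Myl4, the atrial light chain gene, was at 2.32, 2.52, 3.04, 21.6 and 30.7 CPM with IgG and 2.23, 3.06, 1.92, 2.8 and 2.92 CPM with FG-3149. Only IgG replicates 4 and 5 were high. The further atrial genes Myl7 and Sln, chosen after their values were seen, were high in the same hearts. Myl7 had 142 and 178 counts where the other infarcted libraries had 0 to 3, and Sln had 9 and 30 counts where the others had 0. Not all members of the atrial list did so. Bmp10 had 1 and 0 counts in those hearts and 2 in FG-3149 replicate 5, and Nppa was highest in IgG replicate 2. Upk3b, given below, was highest in FG-3149 replicate 3. Of 9 atrial markers, 6 could be tested and 5 had a count in every infarcted library. Their summed level, mostly Nppa, was 1617 to 3619 CPM with IgG and 1180 to 2888 CPM with FG-3149. The retinoic acid hydroxylase gene Cyp26b1 was at 2.03, 6.83, 6.41, 21.9 and 34.4 CPM with IgG and 5.31, 2.75, 31.5, 4.95 and 14.5 CPM with FG-3149. It did not keep to the 2 hearts high in Myl4, Myl7 and Sln and was also high in FG-3149 replicates 3 and 5. Mesothelial genes, also chosen after their values were seen, differed again. Upk3b was at 4.21, 3.36, 0, 2.77 and 2.15 CPM with IgG and 0.428, 3.98, 22, 0.187 and 0.812 CPM with FG-3149, with 0 counts in IgG replicate 3, which allows up to 0.172 CPM (3 counts), and 241 counts in FG-3149 replicate 3. The summed level of 11 mesothelial markers was 57.5 CPM in FG-3149 replicate 3 and 12.3 to 28.7 CPM in the other infarcted libraries, with Muc16 at 0 in all. The part of this tissue in the values of FG-3149 replicate 3 and of IgG replicates 4 and 5 was not tested.

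The most abundant of the 20 widest genes were Rn45s and Lars2, the latter a mitochondrial tRNA synthetase gene. Rn45s was at 7904, 13280, 11020, 6535 and 19480 CPM with IgG and 26220, 1953, 29670, 19610 and 11040 CPM with FG-3149. Lars2 was at 1320, 2638, 2327, 988 and 3476 CPM with IgG and 5796, 473, 5195, 3263 and 1695 CPM with FG-3149. They followed nearly the same order across the libraries, and both were lowest in FG-3149 replicate 2. The share of Rn45s did not pass with any of the 7 reference genes it was set against; the largest was C1qb (r = 0.52, rho = 0.59, exact permutation p = 0.127 and 0.0883, adjusted 0.342 and 0.281, r = 0.44 without FG-3149 replicate 3 and IgG replicate 1).

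**Figure D5:**
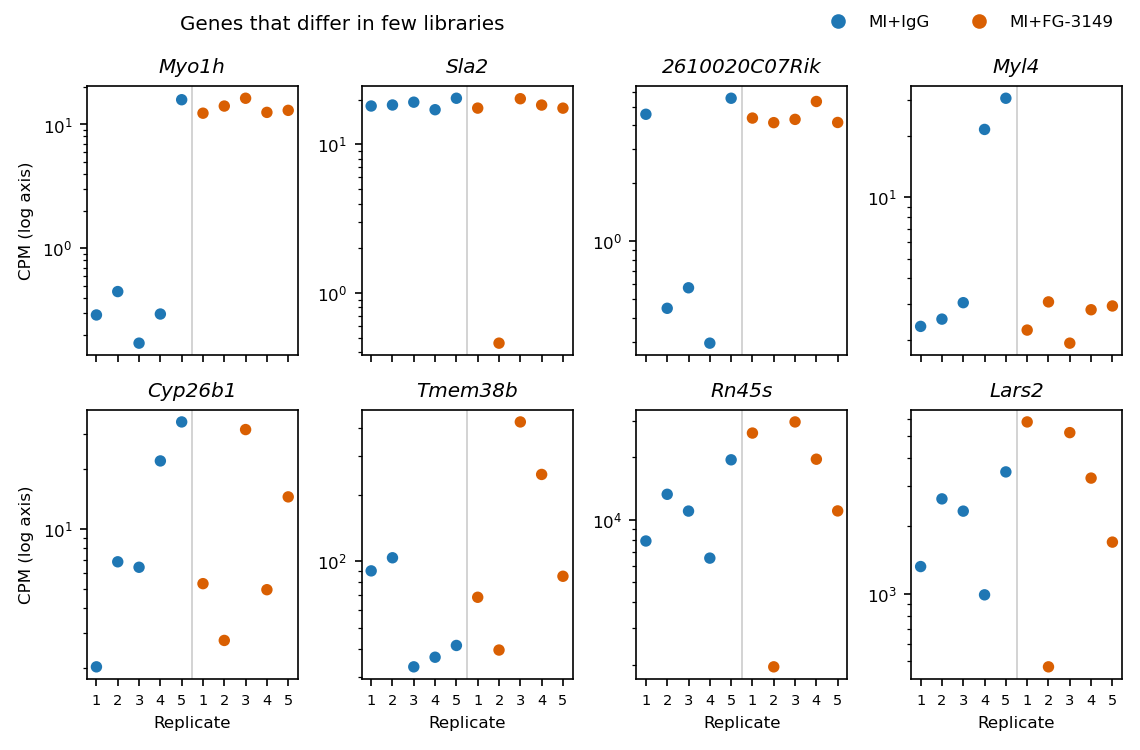
CPM on a log axis (vertical) of 8 highly variable genes in replicates 1 to 5 of MI+IgG (blue, left of the line) and MI+FG-3149 (orange, right of the line). Myo1h is below 1 CPM in IgG replicates 1 to 4 only, Sla2 in FG-3149 replicate 2 only, and Myl4 is above 20 CPM in IgG replicates 4 and 5 only.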

How the data were processed

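RNA of 10 infarcted and 3 sham left ventricles was sequenced, per the labels' protocols, from 500 ng of RNA with a stranded mRNA kit and 75-base single reads. Estimated counts of each gene and RPKM values were deposited, on mm10 per the submitters' processing notes; aligner and counter are not given in the sources used here. Deposited RPKM values served only to check column names. Of 36172 gene rows, 379 with repeated symbols (0% of counts) were left out. Acta2 is listed at 0 in every library and was not analysed here.

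Estimated counts were rounded, filtered with filterByExpr and TMM-scaled (edgeR 4.0.16, limma 3.58.1, R 4.3.3), with log2 CPM at a prior count of 2. Each reference gene's deviation from its group mean, divided by its pooled SD, entered edgeR's quasi-likelihood test beside group, with Benjamini-Hochberg adjustment over all genes and calls under 0.05. Spread was tested with limma on absolute deviations. A reference gene was treated as clustered, and not tested, when a gap over 40% of its range left at least 3 libraries on each side, as for Arntl and Ifit3. Arntl entered only as a further term in an alternative. Modules came from Ward clustering. The edgeR fit on Ctgf and the limma test of spread were tried on simulated data. DESeq2 1.42.0, limma, other scaling, filters, thinning, further terms and leaving out each library were alternatives.

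Genes were named by rule: per fit the 8 steepest calls in each direction whose log2 CPM averaged 1 or more and up to 4 per list, the most extreme 8 SD ratios each way, the 20 widest genes, the 10 highest and lowest loadings of 3 components, the 8 genes nearest each module mean, the 9 reference genes and the clock and sex-linked genes. Igtp, Gbp3, Myh7, Mki67, Lyve1, Cd68, Emr1, Sgk1 and the mesothelial genes were chosen after their values were seen. Members, lists and rules were chosen with earlier results of these data known. Reads of near-identical genes (haemoglobins, H2-Q) are uncertain. Floors cover counting error only.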

Additional observations from a re-analysis of the deposited data

Results flagged for a closer look

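In groups of 5 libraries, a value was looked at again by its gap to the nearest other, divided by the group's range. The limit was Dixon's 95% critical value of 0.71. For single genes this ratio was taken on log2 CPM minus the group mean, while the values given here are in CPM. Of 116 groups examined 14 passed; chance alone flags about 1 in 20 groups, a rate that does not apply here because many of the genes were named for being variable or after their values were seen. Among IgG hearts, replicate 2 stood above the others for Col1a1 (358.8 CPM, others 194.4 to 227), Col12a1 (61.54 CPM, others 25.24 to 31.83) and Sfrp1 (94.75 CPM, others 36.4 to 40.44). IgG replicate 1 was above the others for Igtp (54.82 CPM, others 18.42 to 22.74) and Gbp3 (30.68 CPM, others 18.14 to 20.07), and below them for the mean deviation of module 1, the macrophage module (-0.55, others 0.08 to 0.29). IgG replicate 5 was below for Nr1d1 (58.5 CPM, others 125.6 to 164.9) and above for Myo1h (15.84 CPM, others 0.1718 to 0.448). Upk3b was at 0 CPM in IgG replicate 3 (others 2.153 to 4.206).

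Among FG-3149 hearts, replicate 3 stood above the others for Nr1d1 (166.2 CPM, others 133.8 to 138.8) and module 1 (0.49, others -0.21 to -0.03) and below them for module 7, which holds Ctgf and Nppa (-0.69, others 0.03 to 0.27). Sla2 was at 0.4592 CPM in replicate 2 (others 17.54 to 20.3), and 2610020C07Rik at 5.324 CPM in replicate 4 (others 4.133 to 4.366).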

How the results depend on the processing

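The count of 0 genes with different spread became 296 with no filter on low counts and 2 with counts thinned to the smallest total, and the 55.6% of genes with the higher SD in FG-3149 became 51.6% and, for genes whose log2 CPM averaged 3 or more, 54.7%. DESeq2 called more genes than edgeR: 77 for Ctgf, 160 for Col1a1, 57 for Nppa, 22 for Hadha, 144 for C1qb, 2 for Top2a and 18 for Fos. No filter gave 16 for Ctgf and 77 for C1qb, limma gave 3 for Ctgf, and thinning gave 0 for Fos. With library total as a further term the counts were 2 for Ctgf, 23 for Col1a1, 2 for Nppa and 0 for Fos; with the deviation of Arntl they were 30 for Ctgf, 36 for Col1a1, 11 for Nppa, 67 for C1qb and 1 for Fos. With the share of Rn45s, an alternative chosen after seeing the data, they were 1 for Nppa and 0 for Fos. The first component held 17.9% with no filter and 19.5% with scaled genes, and the largest module had 79 genes of 500 and 359 of 2000. The cause of these moves was not tested.

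Leaving out each library in turn gave 0 to 8 genes for spread, a difference in distance of 0.00175 to 0.028 (exact permutation p 0.127 to 0.913), a share of 47.3% (reversed, without FG-3149 replicate 3) to 61.8%, and counts of 2 to 43 for Ctgf, 0 to 177 for Col1a1, 1 to 36 for Nppa, 0 to 1 for Hadha, 6 to 72 for C1qb, 0 to 2 for Top2a and 0 to 4 for Fos. Between 1 and 2 gene pairs passed, and the first component held 21.6% to 25.4%. Of 1324 alternatives for named slopes and pairs, 903 kept their side of the threshold, 420 lost it, 1 gained it and 0 reversed. Arntl and Ifit3 gave no counts because their values were clustered.

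Same-numbered hearts of both groups deviated together in part (r across genes 0.19, 0.17, 0.03, 0.04 and 0.12, own number best in 5 of 10). The first component had the same sign in both hearts of every replicate number. No label ties a number to a shared batch, and the fits were read without pairing, so a part of replicate number in the calls remains possible. With the replicate block the counts were 9 for Ctgf, 0 for Col1a1, 2 for Nppa, 2 for Hadha and 0 for C1qb, Top2a, Fos and spread; the difference in distance stayed at 0.0141, and the first component held 32%.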
